A study of Mus musculus with 17 samples.

Results

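Neat1, Malat1, Lncpint, Gas5, Snhg1 and Snhg12 are long noncoding RNAs: transcripts that are not translated into a known protein. They are 6 of the 27240 gene symbols in the deposited table, taken from it by symbol, and all 6 were present and passed the filter on low counts. They were chosen by their levels in the groups compared here, so their fold changes are given as a description and without p-values. CD8 T cells were sorted by flow cytometry from mouse lung tumours and profiled by bulk RNA sequencing in 17 libraries. KO libraries came from mice that lack PD-L1 in the endothelium, and WT libraries from wild-type mice; no deletion in the T cells themselves is stated. Core libraries came from macroscopic nodules and rim libraries from nodules in the parenchyma. The groups held 6 KO core, 5 WT core, 4 KO rim and 2 WT rim libraries. The sources used here do not give the tumour model, the driver of the endothelial deletion or the age of the mice. A single WT core library is labelled a pool, and no label says that the others came from separate animals. Part of the spread between libraries may therefore be technical. Within KO core and KO rim some libraries held reads of Y-linked genes and others none, so neither group came from a single animal alone.

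Long noncoding RNAs of this kind act as RNA. Neat1 is the scaffold of paraspeckles, nuclear bodies that form along its long isoform and hold RNA-binding proteins such as Nono and Sfpq. Malat1 collects in nuclear speckles, which store splicing factors. Lncpint is induced by the tumour suppressor p53 in mouse cells and has been reported to bind the chromatin-silencing complex PRC2. Gas5, Snhg1 and Snhg12 are host transcripts: small nucleolar RNAs (snoRNAs), which guide the modification of ribosomal RNA, are cut out of their introns, and the spliced remainder is often degraded during translation by nonsense-mediated decay. In T cells Gas5 is known as a transcript that accumulates on growth arrest and as a decoy for the glucocorticoid receptor.

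Neat1 and Malat1 lie next to each other on chromosome 19 of GRCm38, on the minus strand, 22.036 kb apart. Neat1 spans positions 5824708 to 5845480 and Malat1 positions 5795690 to 5802672. The 3′ ends of Malat1 and of the long Neat1 isoform are not made by ordinary polyadenylation. RNase P cuts these RNAs after an encoded A-rich stretch, which folds back onto 2 U-rich motifs as a triple helix. The 110 bases before that cut are shown. A library that captures poly(A) tails could reach Malat1 and the long Neat1 isoform through this stretch. Capitals mark the 3 stretches, of 13, 16 and 11 bases, that the 2 windows share letter for letter. They were read from the GENCODE M21 transcripts, at chr19:5824708-5824817 for Neat1 and chr19:5795982-5796091 for Malat1, minus strand. The first 2 shared stretches hold the U-rich motifs, written with T, and the third is the end of the A-rich stretch. The annotated Malat1 transcript runs 292 bases past its window and includes the tRNA-like Mascrna, whereas the Neat1 window ends at the last annotated base.
Neat1 3′ end: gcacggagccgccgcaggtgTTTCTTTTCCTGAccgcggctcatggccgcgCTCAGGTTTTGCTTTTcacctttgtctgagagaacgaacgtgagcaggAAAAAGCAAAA
Malat1 3′ end: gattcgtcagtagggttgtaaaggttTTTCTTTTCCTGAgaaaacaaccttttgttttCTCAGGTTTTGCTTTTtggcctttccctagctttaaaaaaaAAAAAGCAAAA

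The other members lie elsewhere in GRCm38: Lncpint on chromosome 6 (31093563 to 31218474, minus strand), Gas5 on chromosome 1 (161034601 to 161038539, plus strand), Snhg1 on chromosome 19 (8723487 to 8726326, plus strand) and Snhg12 on chromosome 4 (132308678 to 132311024, plus strand). Snhg1, with Neat1 and Malat1, makes 3 members on chromosome 19. SnoRNA host transcripts often begin with a 5′ terminal oligopyrimidine (TOP) tract, the run of C and T that places the messages of ribosomal proteins under growth control. Start windows of 80 bases, 40 before the annotated start and 40 from it, are shown for the 3 hosts and, as members without snoRNAs, for Malat1 and Lncpint. Capitals mark runs of C or T of which 5 or more bases lie within 10 bases of the start. The windows come from RefSeq on GRCm38.p6, at chr1:161035126-161035205 for the second Gas5 start, chr19:8723447-8723526 for Snhg1, chr4:132308638-132308717 for Snhg12, chr19:5802633-5802712 for Malat1 and chr6:31218435-31218514 for Lncpint.
Gas5, second start: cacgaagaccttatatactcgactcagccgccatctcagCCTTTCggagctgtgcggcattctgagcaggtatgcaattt
Snhg1: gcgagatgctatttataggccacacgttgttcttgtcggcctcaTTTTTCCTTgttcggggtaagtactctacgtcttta
Snhg12: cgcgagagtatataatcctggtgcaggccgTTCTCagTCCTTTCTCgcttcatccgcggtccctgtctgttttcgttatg
Malat1: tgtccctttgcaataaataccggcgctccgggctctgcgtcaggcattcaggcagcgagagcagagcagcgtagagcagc
Lncpint: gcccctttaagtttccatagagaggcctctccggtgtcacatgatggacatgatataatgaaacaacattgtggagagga

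The 3 snoRNA hosts each had such a run at a start, of 6 bases at the second Gas5 start and of 9 bases, at the longest, in Snhg1 and Snhg12. By this rule the first Gas5 start, Malat1 and Lncpint had none, since the Lncpint run cctctcc lies mostly farther from the start. A run that met the rule stood in 34.4% of 32851 RefSeq promoters, so it is common. The E-box CACGTG, which reads the same on both strands, was found, in the window from 250 bases before to 50 after the start, in Lncpint alone among the 5 members shown, against 7.2% of all promoters. A match is a description of the letters and not of a bound site.

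Totals ran from 21767045 to 32566456 counts per library, and levels are given as CPM, each library's counts brought to the same total with edgeR's TMM scaling. The 9 CD8 T cell markers summed to 4943 to 9624 CPM, with none at 0 in any library. Markers of other cells were present throughout. The 12 macrophage and monocyte markers summed to 980 to 7021 CPM in KO rim and to 1247 to 2323 CPM in WT rim, and the 8 B and plasma cell markers to 197 to 3911 CPM in KO core. The 8 dendritic cell markers were highest in H876 of WT core, where they summed to 10068 CPM. That library's CD8 T cell markers summed to less, 4943 CPM, and its macrophage and monocyte markers to 5417 CPM. In every other library each list of other cells stayed below the CD8 T cell markers. Dendritic cell markers also set the 2 WT rim libraries apart, with 973 CPM for H874 and 4867 CPM for H877. In bulk RNA, fewer cells of a type and less RNA per cell cannot be told apart. PD-L1 was removed from endothelial cells, so Cd274 in these T cells does not check the label. Y-linked genes summed to 449 CPM in F322 and 511 in O of KO core, and to 503 and 480 in KO rim. The WT core pool held 103 CPM, WT core H876 0.18, and every other library, both of WT rim included, 0. The groups thus differed in how many libraries held such reads. What the sex of the mice contributed to the comparisons was not tested as such.

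Malat1 was the most abundant member per length. It averaged 252 CPM per kb of annotated exon over the 17 libraries, followed by Gas5 at 24.7, Neat1 at 14.8, Snhg1 at 11.0, Snhg12 at 3.51 and Lncpint at 1.13. By mean CPM, which is not corrected for length, Malat1 ranked 32nd and Neat1 548th among the tested genes. Spread between libraries ran the other way: the coefficient of variation was 17.6% for Malat1, 21.7% for Gas5, 34.5% for Snhg1, 35.0% for Neat1, 40.2% for Snhg12 and 79.5% for Lncpint. Lncpint and Snhg12 rest on few reads, 81 to 637 and 101 to 374 per library, while Neat1 had 3891 to 13201 and Malat1 33472 to 58890.

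**Figure D1:**
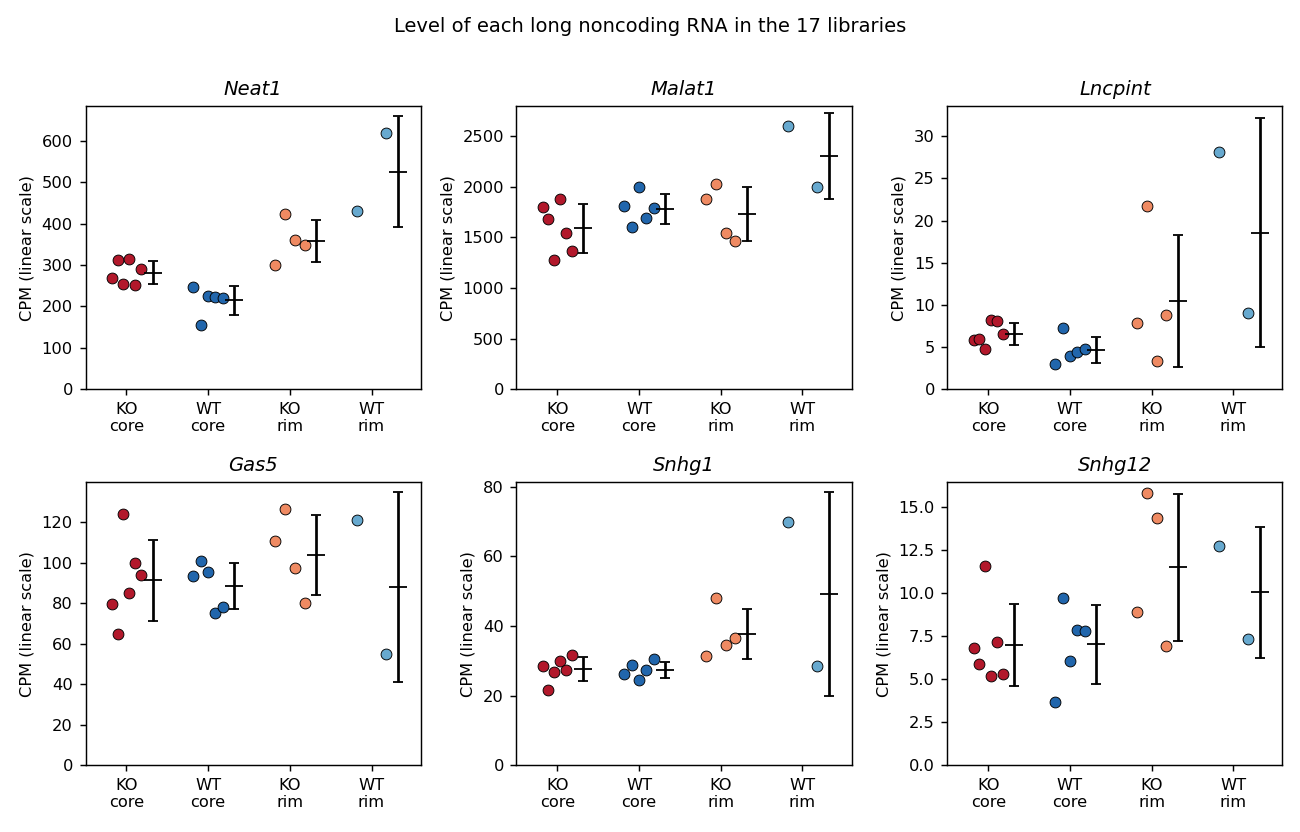
CPM of each long noncoding RNA on a linear axis, 1 point per library, in KO core (6 libraries), WT core (5), KO rim (4) and WT rim (2); the bar beside each group is the mean with its SD. Neat1 is lowest in WT core and highest in WT rim, while the Gas5 groups overlap and the 2 WT rim libraries lie far apart for Lncpint, Gas5 and Snhg1.

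Neat1, the paraspeckle scaffold, separated most groups. In KO core its lowest library, F86, held 253 CPM, the median was 279 CPM and the highest library, F322, held 314 CPM. In WT core the pool held 221 CPM, H876 223, H873 225, F164 248 and H719, the lowest of all libraries, 155. In KO rim O held 349 CPM, F86 361, F322 424 and F15 299. The 2 WT rim libraries held 430 CPM in H874 and 619 in H877. Every KO core library thus lay above every WT core library, whereas every KO rim library lay below both WT rim libraries. Groups were separated in this way for 0.397% of all tested genes in core and for 13.7% in rim. The means were 281 ± 27.7 CPM in KO core, 214 ± 34.9 in WT core, 358 ± 51.3 in KO rim and 525 ± 134 in WT rim (SD, n = 6, 5, 4 and 2). From low to high the order was WT core, KO core, KO rim, WT rim, and only the KO core and KO rim ranges overlapped, since KO rim F15 fell within KO core. Short and long Neat1 isoforms share their 5′ part and were not separated in counts per gene.

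By site, Neat1 was 2.45-fold lower in WT core than in WT rim (log2 fold change -1.29, SE 0.17). In KO mice the difference between core and rim was smaller (log2 fold change -0.35, SE 0.14). By genotype, KO core over WT core had a log2 fold change of 0.39 (SE 0.13) and KO rim over WT rim one of -0.55 (SE 0.18), a difference of 0.95 (SE 0.22). The rim value was -0.79 (SE 0.21) without WT rim H874 and -0.25 (SE 0.22) without WT rim H877. These values belong to the contrasts that chose Neat1. The comparisons share groups, so the values are set side by side and are not independent. Leaving out WT rim H877 brought the WT core over WT rim value to -0.99 and leaving out H874 to -1.53.

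Malat1, the nuclear speckle RNA and a neighbour of Neat1, varied much less. KO core ran from 1273 CPM in F319, over a median of 1615, to 1876 in F322. WT core ran from 1601 CPM in H719 to 1994 in H873. KO rim O held 1469 CPM, F86 1546, F15 1880 and F322 2024. WT rim libraries held 2602 CPM in H874 and 2002 in H877. WT rim was thus above all WT core libraries and overlapped KO rim. The means were 1590 ± 240 CPM in KO core, 1778 ± 147 in WT core, 1729 ± 265 in KO rim and 2302 ± 424 in WT rim (SD). The log2 fold change of WT core over WT rim was -0.37 (SE 0.16), that of KO core over KO rim -0.12 (SE 0.13), that of KO over WT in core -0.16 (SE 0.12) and in rim -0.41 (SE 0.17). Without H874 the WT core over WT rim value was -0.17 (SE 0.20) and the KO over WT value in rim -0.21 (SE 0.21).

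The ratio of Neat1 to Malat1 counts is free of library scaling. It was 0.149 to 0.213 in KO core, against 0.0968 to 0.137 in WT core, so the genotypes did not overlap in core. In rim it was 0.159 to 0.237 in the KO libraries, against 0.165 in H874 and 0.309 in H877 of WT. H874 thus lay inside the KO rim range and H877 above it.

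**Figure D2:**
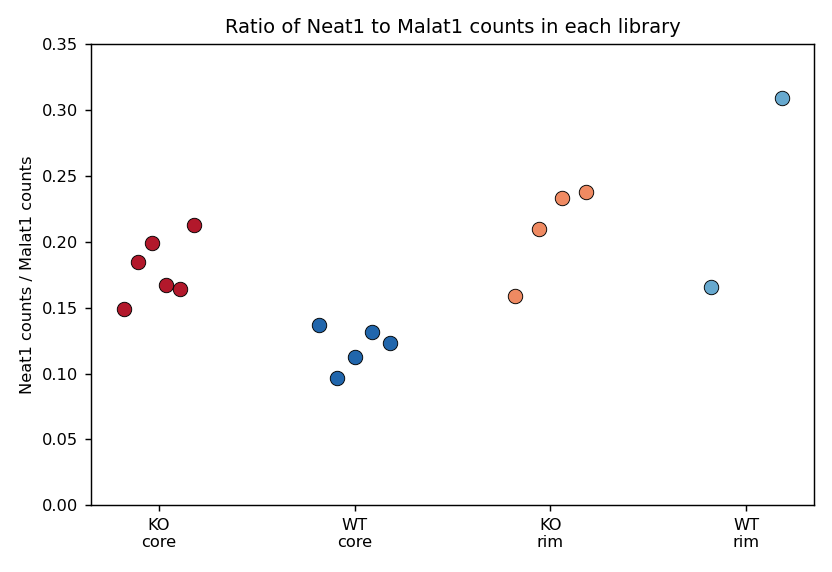
Neat1 counts divided by Malat1 counts in each of the 17 libraries, 1 point per library, with groups on the horizontal axis. All 6 KO core libraries lie above all 5 WT core libraries, and the 2 WT rim libraries lie at 0.165 and 0.309.

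Lncpint, the p53-induced RNA, was low in all groups. KO core ran from 4.79 CPM in F319 to 8.19 in F322, with a mean of 6.56 ± 1.35 CPM (SD, n = 6). In WT core H719 held 7.21 CPM, the pool 4.74, H876 4.47, H873 3.89 and F164 3.02. KO rim O held 8.83 CPM, F86 3.40, F15 7.85 and F322 21.7, and WT rim 28.1 in H874 and 9.01 in H877. Single libraries, KO rim F322 and WT rim H874, carried the highest values, and the WT rim range lay above all WT core libraries. The log2 fold change of WT core over WT rim was -1.99 (SE 0.52), and -0.95 without H874. In KO core over KO rim it was -0.67 (SE 0.42), and -0.027 without KO rim F322. KO over WT gave 0.49 (SE 0.40) in core and -0.83 (SE 0.56) in rim, with overlapping groups in both, and the rim value was 0.21 without H874.

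Gas5, which carries snoRNAs and a growth-arrest function, did not separate the groups. Its mean was 91.2 ± 20.1 CPM in KO core, 88.5 ± 11.2 in WT core, 104 ± 19.6 in KO rim and 87.9 ± 47.0 in WT rim (SD). The WT rim libraries lay far apart, with 121 CPM in H874 and 54.7 in H877, the lowest of all 17 libraries. The log2 fold changes were -0.18 (SE 0.21) in KO core over KO rim, 0.0092 (SE 0.27) in WT core over WT rim, 0.043 (SE 0.19) in KO over WT core and 0.24 (SE 0.28) in KO over WT rim. Both values that involve WT rim depended on the library. Without H874 that of WT core over WT rim was 0.69 and that of KO over WT in rim 0.92, and without H877 they were -0.44 and -0.21.

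Snhg1 was nearly flat in core and higher in most rim libraries. It averaged 27.7 ± 3.39 CPM in KO core and 27.5 ± 2.27 in WT core. KO rim O held 36.5 CPM, F86 34.6, F322 48.2 and F15 31.5, with only F15 inside the KO core range of 21.7 to 31.6. WT rim held 69.8 CPM in H874, the highest of all libraries, and 28.4 in H877, which lay inside the WT core range of 24.6 to 30.5. The log2 fold change was -0.44 (SE 0.20) in KO core over KO rim and -0.84 (SE 0.25) in WT core over WT rim. The WT value was -0.051 without H874 and -1.33 without H877. KO core over WT core gave 0.011 (SE 0.19) and KO rim over WT rim -0.38 (SE 0.27), the rim value being 0.40 without H874 and -0.87 without H877.

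Snhg12 averaged 6.99 ± 2.38 CPM in KO core, 7.02 ± 2.27 in WT core, 11.5 ± 4.26 in KO rim and 10.05 ± 3.79 in WT rim (SD). KO rim F322 and F86, at 15.8 and 14.3 CPM, and WT rim H874, at 12.7 CPM, exceeded every core library. KO rim O and F15, at 6.92 and 8.91 CPM, and WT rim H877, at 7.37 CPM, did not. The log2 fold change was -0.72 (SE 0.33) in KO core over KO rim and -0.52 (SE 0.42) in WT core over WT rim. KO core over WT core gave -0.0061 (SE 0.31) and KO rim over WT rim 0.20 (SE 0.45). Without H874 the WT core over WT rim value was -0.075 and the rim value of KO over WT 0.64, and without H877 they were -0.84 and -0.13.

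Over the 6 members, which were chosen on these contrasts, signs and medians are a description. All 6 log2 fold changes of KO core over KO rim were negative, with a median of -0.40, and of -0.16 without KO rim F322; the median over all tested genes was 0.029. For WT core over WT rim 5 of 6 were negative, with a median of -0.68, against 0.033 over all tested genes. That median was -0.12 without H874 and -0.92 without H877. KO over WT was positive for 4 of 6 members in core, with a median of 0.027, and for 2 of 6 in rim, with a median of -0.40. The direction in rim turned on 1 library: without H874 4 of 6 were positive, with a median of 0.31, and without H877 0 of 6, with a median of -0.41.

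**Figure D3:**
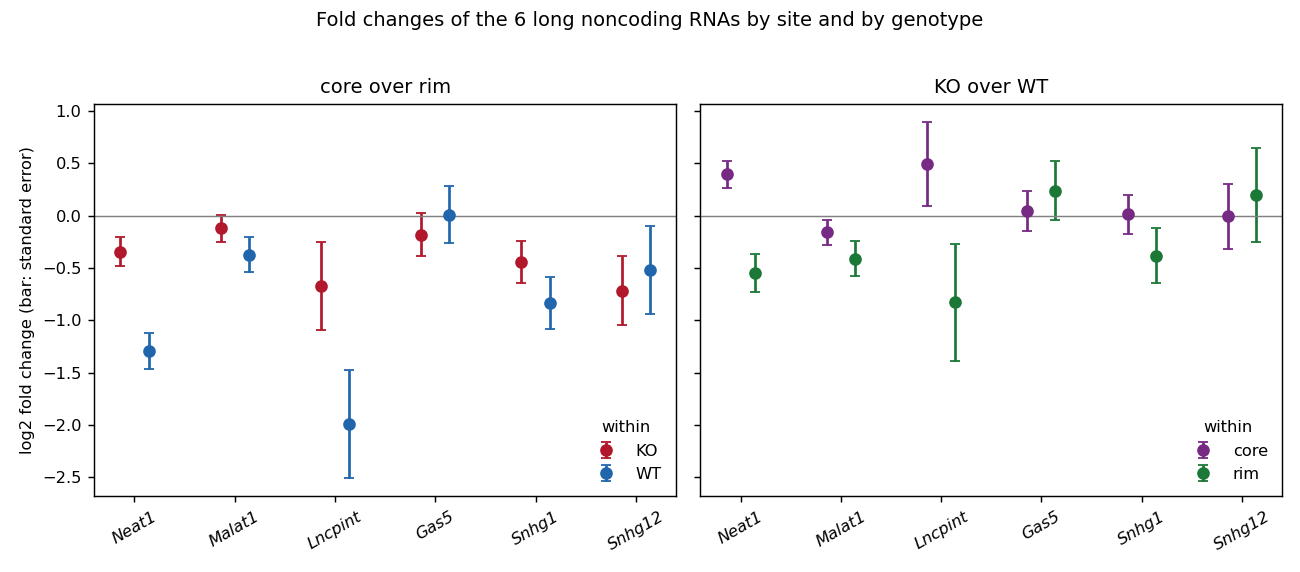
Log2 fold changes of the 6 long noncoding RNAs with their standard errors from the model over 17 libraries: core over rim within KO and within WT on the left, KO over WT within core and within rim on the right. Neat1 and Lncpint lie furthest below 0 in WT core over WT rim, and Neat1 lies above 0 in core and below 0 in rim for KO over WT.

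Calls were made where the adjusted p was under 0.05 in edgeR's quasi-likelihood test, with Benjamini-Hochberg adjustment over 20137 tested genes. In KO core over WT core 0 members were called, and 0% of all tested genes. In KO rim over WT rim 0 members were called, and 0% of all tested genes. In KO core over KO rim 0 members were called, and 0% of all tested genes. For the difference of KO over WT between core and rim the figures were again 0 members and 0%. At an unadjusted p under 0.05 the same 4 comparisons held 1244, 1480, 1600 and 1547 genes, and DESeq2 called 9, 268, 35 and 161. DESeq2 called 1 member among them, Neat1 in the difference. In WT core over WT rim edgeR called 777 genes, 3.86% of those tested, with 422 higher and 355 lower, and 2 of the 6 members, Neat1 and Lncpint, both lower in WT core. Since the members were chosen on these contrasts, nothing is read from that share. Lncpint kept its call in 6 of 13 other settings and Neat1 in all 13.

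Groups that do not overlap were common in comparisons with WT rim. All libraries of one group lay above or below all of the other for 1 member (Neat1) in KO core over WT core, where this held for 0.397% of all tested genes and 0% were called. It held for 1 member (Neat1) in KO rim over WT rim, against 13.7% of all genes, and for 0 members in KO core over KO rim, against 1.6%. In WT core over WT rim it held for 3 members, Neat1, Malat1 and Lncpint, against 19.8% of all genes, of which 3.86% were called.

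Beside the WT core over WT rim values, several other quantities differed between libraries. The 6 CD4 and regulatory T cell markers summed to 344 to 757 CPM in WT core, against 196 to 342 CPM in WT rim. Endothelial markers summed to 53.4 to 188 CPM in WT core, against 127 to 213 CPM in WT rim. The share of counts from ribosomal protein genes was 2.51 to 3.33% in WT core, against 4.19% in H874 and 1.99% in H877. Their part in the results was not tested. A covariate for the mean level of all other-cell markers together cannot adjust for lists that differ in opposite directions. With that covariate the log2 fold change of WT core over WT rim was -1.32 (SE 0.19) for Neat1 and -1.83 (SE 0.57) for Lncpint.

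The snoRNAs inside the 3 hosts were measured apart from them. RefSeq places 8 snoRNAs within Gas5, 8 within Snhg1 and 4 within Snhg12, and 17 of these had an entry, 15 of them past the filter. Most carry only a LOC identifier, and the sources used here do not say how reads over both host and snoRNA were assigned. Counts were low, from a median of 6 per library for Snora61 to 278 for LOC115487677. Snord22, in Snhg1, held 1.08 to 1.83 CPM in KO core and 1.22 to 1.997 CPM in WT core. In KO rim O it held 1.74 CPM, in F86 1.09, in F322 3.599 and in F15 1.88, and in WT rim 6.23 in H874 and 2.53 in H877. The 2 WT rim libraries were above all WT core libraries, while KO core and KO rim overlapped.

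No snoRNA within a host was called by edgeR in any of the 4 group comparisons; by DESeq2, 1 was called, in WT core over WT rim. In WT core over WT rim all 15 log2 fold changes were negative, with a median of -0.88, against a median of -0.63 for all 144 tested snoRNA genes, of which 112 were negative and 2 were called lower. In KO core over KO rim 14 of 15 were negative, with a median of -0.50, against -0.37 for all snoRNA genes. KO over WT in rim gave 15 of 15 negative with a median of -0.55, against 100 of 144 and -0.33 for all snoRNA genes. In core it gave 11 of 15 with a median of -0.11, against 84 of 144 and -0.077. The WT rim values rest on H874: without that library 9 of 15 were negative in WT core over WT rim, with a median of -0.055, and 4 of 15 in KO over WT rim, with a median of 0.25. In KO core over KO rim every left-out library left 11 to 15 negative.

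**Figure D4:**
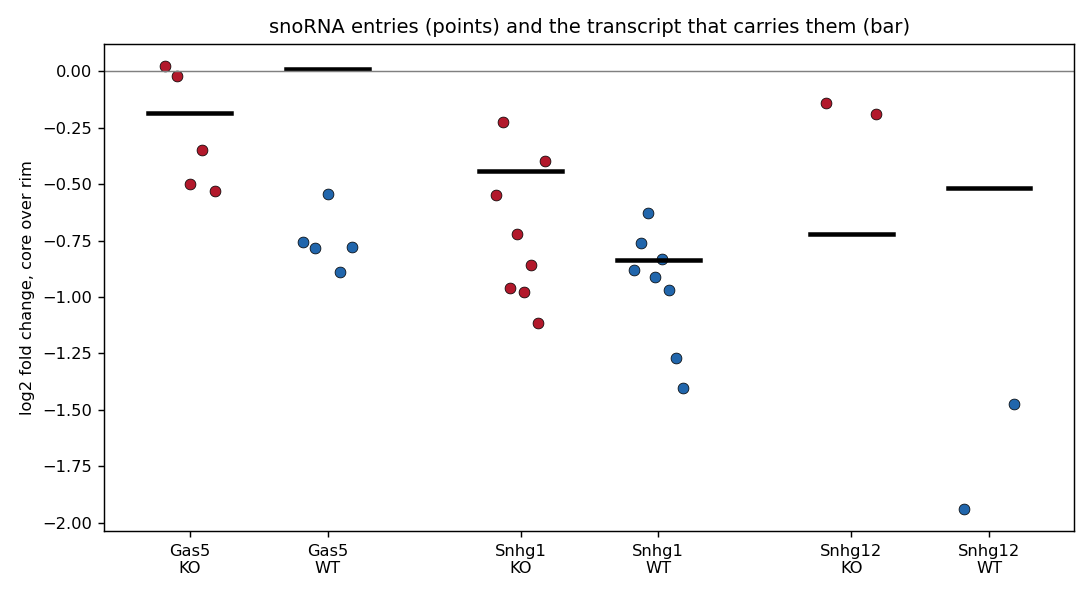
Log2 fold change of core over rim for each tested snoRNA entry (points) and for the host transcript that holds it (black bar), for Gas5, Snhg1 and Snhg12 within KO and within WT. All 15 WT points lie below 0, including the Gas5 snoRNAs, whose host lies at 0.0092. The host value was 0.69 without H874 and -0.44 without H877.

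The snoRNA values can be set beside those of their hosts. For Gas5 in WT core over WT rim the 5 snoRNAs had log2 fold changes of -0.89 to -0.54, beside 0.0092 for Gas5 itself. That Gas5 value was 0.69 without H874 and -0.44 without H877, and the snoRNA values in this comparison rest on H874. The Snhg1 snoRNAs ran from -1.40 for Snord22 to -0.63, beside -0.84 for the host. Snora61 and Snord99, in Snhg12, had -1.94 (SE 0.91) and -1.48 (SE 0.74), beside -0.52.

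Other snoRNA host transcripts were read from a list of 24, of which 22 were tested. None was called in the other 3 group comparisons, as for all genes, and 2 fell in WT core relative to WT rim, 9.09% of the list against 3.86% of all tested genes. Nop56, a protein of the box C/D snoRNP, held 301 ± 16.3 CPM in WT core and 572 ± 235 CPM in WT rim (log2 fold change -0.93, SE 0.20, adjusted p = 0.0191). Eif4a2, a translation initiation helicase, held 288 ± 32.3 CPM in WT core and 473 ± 134 CPM in WT rim (log2 fold change -0.72, adjusted p = 0.0372). In that comparison 19 of 22 hosts had negative log2 fold changes, with a median of -0.47, against 0.033 over all tested genes.

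Among 15 proteins that build snoRNPs, 2 rose in WT core, 13.3% against 3.86% of all tested genes. Ruvbl2, an ATPase of the assembly complex, held 83.2 ± 9.85 CPM in WT core and 45.1 ± 7.19 CPM in WT rim (log2 fold change 0.89, adjusted p = 0.0074). Its partner Ruvbl1 held 84.5 ± 13.0 CPM in WT core and 52.6 ± 1.95 CPM in WT rim (log2 fold change 0.68, adjusted p = 0.0391). None of the 18 translation factors with TOP messages and none of the 90 ribosomal protein genes passed in any comparison; in WT core over WT rim their medians were 0.14 and -0.12. Of 17 nonsense-mediated decay factors 0 passed in any comparison, and those with the smallest p in WT core over WT rim were Smg9 (log2 fold change -0.75, adjusted p = 0.0666) and Smg8 (-0.84, adjusted p = 0.0845).

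Proteins that work with Neat1 and Malat1 were read from lists of 25 paraspeckle proteins and 23 speckle and splicing factors, all of them tested. No paraspeckle protein was called in any comparison. The core paraspeckle protein Nono held 380 ± 25.7 CPM in WT core and 293 ± 8.29 CPM in WT rim (adjusted p = 0.0993), and Sfpq held 87.7 ± 23.8 CPM in WT core and 139 ± 54.9 CPM in WT rim (adjusted p = 0.149). Of the splicing list 5 fell in WT core relative to WT rim and 0 rose, so that 21.7% of the list was called against 3.86% of all tested genes. None was called in the other 3 group comparisons, where 0% of all genes were. Srsf2, a speckle-resident splicing factor, held 118 ± 4.49 CPM in WT core and 252 ± 71.4 CPM in WT rim (log2 fold change -1.10, SE 0.25, adjusted p = 0.0239). Clk1, a kinase that phosphorylates such factors, held 359 ± 34.1 CPM in WT core and 706 ± 184 CPM in WT rim (log2 fold change -0.98, adjusted p = 0.0089). Srsf7 and Clk4 had -0.64 (adjusted p = 0.0390) and -0.55 (adjusted p = 0.0493), and Sf3b1, named after its value was seen, -0.51 (adjusted p = 0.0473). The list's median was -0.23.

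For Lncpint, 22 tested p53 pathway genes and 11 PRC2 genes were read. In WT core over WT rim 9.09% of the p53 list and 18.2% of the PRC2 list were called, against 3.86% of all tested genes. Of the 22 p53 genes 9 had positive and 13 negative log2 fold changes there. Gadd45a, a p53-inducible growth arrest gene, fell to 17.6 ± 5.97 CPM in WT core, against 65.8 ± 12.3 CPM in WT rim (log2 fold change -1.90, SE 0.33, adjusted p = 0.0074). Sesn1, a p53-inducible stress gene, fell to 72.0 ± 14.2 CPM in WT core, against 231 ± 162 CPM in WT rim (log2 fold change -1.68, adjusted p = 0.0196). Without H874 neither gene was called, with log2 fold changes of -1.70 for Gadd45a and -0.69 for Sesn1. Neither Trp53 itself (log2 fold change 0.19, adjusted p = 0.588) nor its target Cdkn1a (0.13, adjusted p = 0.940) was called. Of PRC2, Rbbp7 rose (log2 fold change 0.48, adjusted p = 0.0379) and Phf1 fell (-0.73, adjusted p = 0.0306). No gene of either list was called in the other 3 group comparisons.

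For Gas5, 11 genes of the glucocorticoid receptor and its response were read. In WT core over WT rim 18.2% of them were called, against 3.86% of all tested genes. Sgk1 fell to 252 ± 104 CPM in WT core, against 705 ± 408 CPM in WT rim (log2 fold change -1.49, adjusted p = 0.0307). Without H877 its log2 fold change was -0.71 and not called, and it kept its call in 7 of 13 other settings. Tsc22d3, which encodes GILZ, fell to 681 ± 193 CPM in WT core, against 1625 ± 587 CPM in WT rim (log2 fold change -1.25, adjusted p = 0.0252). The receptor gene Nr3c1 was not called (log2 fold change -0.42, adjusted p = 0.342). In KO core over KO rim 10 of 11 had negative log2 fold changes and 0 were called.

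Genes that respond to tissue dissociation moved in both directions in WT core over WT rim. Ier2 and Junb, immediate early genes, fell (log2 fold changes -1.36 and -0.67, adjusted p = 0.0020 and 0.0403). Hspa1b, a heat shock chaperone, rose (3.69, adjusted p = 0.0440); its near-identical copy Hspa1a makes its count uncertain. The median over 19 genes was 0.37, and 15.8% of them were called, against 3.86% of all tested genes. Whether handling differed between groups was not tested.

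In all, 18 genes of these lists were called in WT core over WT rim, and the WT rim group had only 2 libraries. Without H874 3 of the 18 were called, Ruvbl2, Sgk1 and Ier2. Without H877 11 of the 18 were called, and those that lost their call were Ruvbl1, Ruvbl2, Sgk1, Rbbp7, Phf1, Clk4 and Hspa1b. Without WT core H719 or H873 9 of the 18 were called in each case. Without H874 the log2 fold changes were -0.43 for Nop56, -0.40 for Eif4a2, -0.33 for Srsf7, -0.35 for Junb and -0.83 for Tsc22d3. All 18 kept their direction in all 13 other settings.

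**Figure D5:**
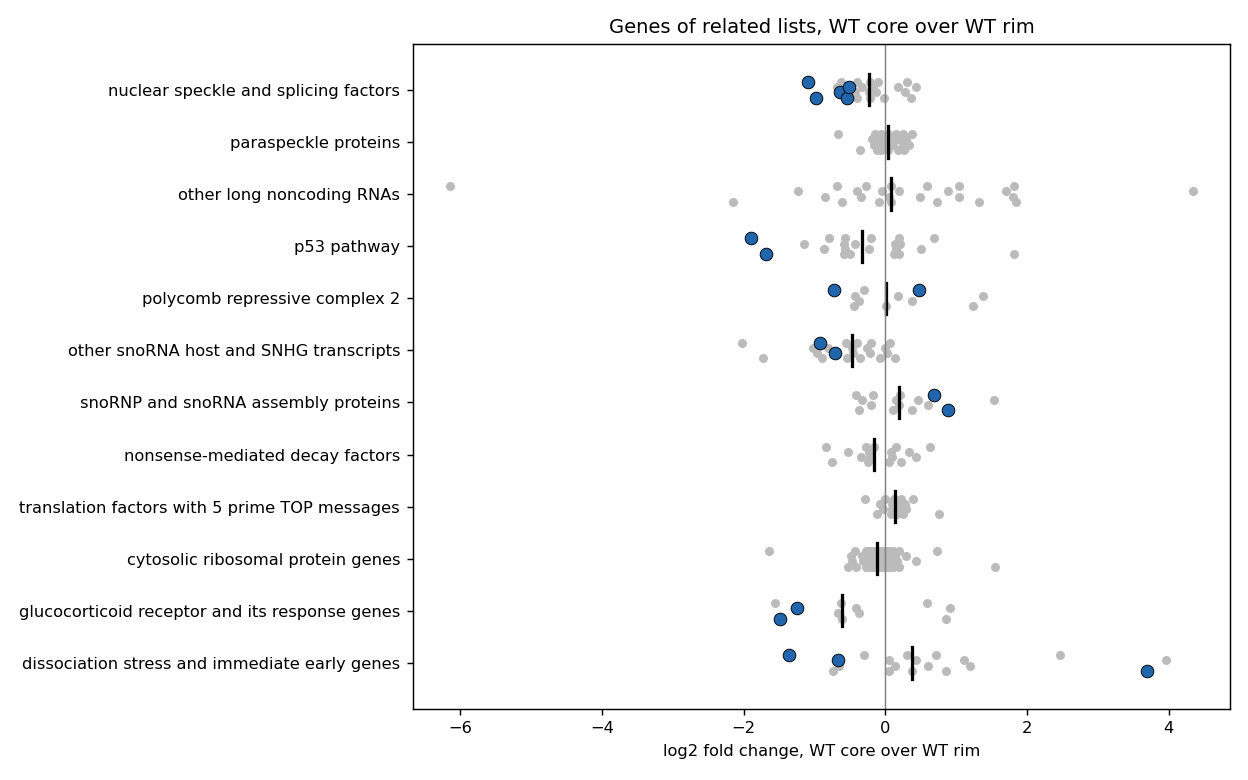
Log2 fold change of WT core over WT rim for each tested gene of 12 related lists; blue points passed an adjusted p of 0.05, grey points did not, and the black bar is each list's median. Splicing, p53 and glucocorticoid genes passed to the left of 0, as did Nop56, Eif4a2, Phf1, Ier2 and Junb. Ruvbl1, Ruvbl2, Rbbp7 and Hspa1b passed to the right.

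Other long noncoding RNAs were read as well. On a list of 37 named ones 27 were tested and 0 were called in any comparison; in WT core over WT rim the smallest p were those of Pvt1 (23.7 ± 4.12 CPM in WT core and 9.51 ± 0.239 in WT rim, adjusted p = 0.0682) and Lockd (20.2 ± 10.03 CPM in WT core and 5.73 ± 2.85 in WT rim, adjusted p = 0.0862), with higher means in WT core. Of all 3087 other RefSeq long noncoding RNAs that were tested, 17 were higher and 4 lower in WT core than in WT rim, 0.68% against 3.86% of all genes, and the median log2 fold change was 0.

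The genes around the members were read within 100 kb. Members were left out of these neighbour lists. Of 12 tested genes near Neat1 and 11 near Malat1 none was called in any comparison. Frmd8, 5.494 kb from Neat1, had a log2 fold change of -0.43 in WT core over WT rim (adjusted p = 0.194), against -1.29 for Neat1. Gas5 overlaps Zbtb37 on the opposite strand, and Slc3a2 starts 0.118 kb from Snhg1. The sources used here do not say whether counting used strand, so reads of the overlapping parts cannot be told apart. Zbtb37 had a log2 fold change of 0.010 in WT core over WT rim and Slc3a2, which encodes the CD98 heavy chain, -0.080; neither was called. Near Snhg12, Rcc1, the exchange factor for the GTPase Ran, rose to 52.9 ± 7.02 CPM in WT core, against 25.1 ± 6.85 CPM in WT rim (log2 fold change 1.08, SE 0.24, adjusted p = 0.0239), the direction opposite to that of Snhg12. Apart from Neat1, itself a member and a neighbour of Malat1, Rcc1 was the only called neighbour of any member. It kept its call in 10 of 13 other settings, and lost it without either WT rim library and among the libraries without Y-linked reads.

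Genes whose log2 CPM followed each member most closely over the 17 libraries were taken from 9754 genes that averaged 5 CPM or more, by Pearson's r. The libraries share groups and scaling, so r is a description. Neat1 was followed by Lysmd3 (r = 0.929), S1pr4 (0.909), Rasa3 (0.907), Tbk1 (0.904) and Dhx40 (0.894). S1pr4 encodes a sphingosine-phosphate receptor and Tbk1 a kinase of innate signalling. Malat1 was followed less closely, by Shld3 (0.852), Scp2 (0.837), Rbm12 (0.835), Tspan32 (0.826) and Snapc4 (0.820). Gas5 was followed by Rpl3 (0.901), Bcl2 (0.897), Mlxip (0.897), Rpl4 (0.893) and Eef1a1 (0.892), of which Rpl3 and Rpl4 encode ribosomal proteins and Eef1a1 the elongation factor that brings tRNA to the ribosome. Snhg1 was followed by Slc12a7 (0.921), Cd55 (0.919), Trib2 (0.908), Amd1 (0.905) and Hsf1 (0.904). Lncpint was followed by Rnf145 (0.859), Hsf1 (0.855), Tex30 (0.841), Alkbh4 (0.831) and Tfb2m (0.8287), so Hsf1, the heat shock transcription factor, stands in both lists. Snhg12 was followed by Wdr4 (0.814), Mettl18 (0.809), Tsr2 (0.809) and Cdk12 (0.798).

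Within groups, after each group's mean was taken away, 0 of the 15 pairs of members passed a two-sided permutation test of Pearson's r with Benjamini-Hochberg adjustment over the pairs; at an unadjusted p under 0.05 there was 1. That pair was Lncpint and Snhg1, with r = 0.69 (permutation p = 0.0361, adjusted 0.403) and rho = 0.78 (permutation p = 0.0053, adjusted 0.0789) over 17 libraries, and r = 0.52 without WT rim H874 and KO rim F322, the most extreme for Lncpint. Gas5 and Snhg12 had r = 0.52 (permutation p = 0.0545) and rho = 0.57 (permutation p = 0.0474, adjusted 0.356), and r = 0.49 without WT rim H877 and KO core F318. Neat1 and Malat1, the chromosomal neighbours, had r = 0.17 (permutation p = 0.559) and rho = 0.19 (permutation p = 0.531), and r = 0.19 without WT rim H877 and WT core H719.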

How the data were processed

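The file that the authors deposited holds raw counts of reads, without normalization, for each gene symbol in the 17 libraries. Per the labels' protocols, RNA was taken with the Qiagen RNeasy Micro Kit and libraries were made with the Illumina TruSeq RNA Library Prep Kit. Subread 2.0.0, featureCounts, HISAT2, Bowtie2 2.4.5 and cutadapt 3.2 are listed, per the submitters' processing notes, with builds GRCm38 and mm10. The sources used here do not give poly(A) selection, strandedness or the treatment of reads that match several genes, and each could change the level of a long noncoding RNA. Mitochondrially encoded messages were not analysed here.

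The members and the lists were chosen with earlier results of these data known. Groups came from the sample titles. In R 4.3.3, edgeR 4.0.16 (TMM scaling, filterByExpr, robust quasi-likelihood fit) was run on all 17 libraries in 1 model of 4 groups; 20137 of 27240 symbols passed the filter. Each standard error is the absolute log2 fold change divided by the square root of the test's F. Log2 CPM used a prior count of 2, and correlations 100000 permutations within groups. The fit was tested on simulated data. Alternatives were DESeq2 1.42.0, its size factors, no filter, a block by identifier, a covariate for other cell types, the libraries without Y-linked reads, and each library left out. The setting without Y-linked reads left out F322 and O at both sites and the WT core pool, and kept H876. Gene names and positions came from RefSeq, in which all 27240 symbols were found. Exon lengths and transcript ends came from GENCODE M21 and start windows from RefSeq GRCm38.p6, in which 5 of 6 members matched. Genes named from lists are up to 4 called ones with the largest change, or up to 2 with the smallest p, and likeness gave 5 genes per member; a few genes that these rules select are not reported here.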

Additional observations from a re-analysis of the deposited data

Results flagged for a closer look

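Snhg12 in the KO core library F319 stood at 11.6 CPM, while the other 5 KO core libraries ran up to 7.19 CPM. Its gap to the nearest library passed the critical value for 6 samples at the 95% level. Of 18 sets of a member and a group of 4 to 6 libraries this was the only one that did, and chance gives about 1 in 20. The same library had the highest Gas5 level of KO core, 124 CPM, and the highest share of ribosomal protein counts, 4.36%.

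Neat1 had genotype differences of opposite sign at the 2 sites. Every KO core library lay above every WT core library, and every KO rim library below both WT rim libraries. Such a separation held for 0.397% of all tested genes in core and for 13.7% in rim. Without H877 the rim log2 fold change was -0.25 (SE 0.22), and without H874 -0.79 (SE 0.21). The log2 fold change of KO over WT was 0.95 higher in core than in rim. As Neat1 was chosen on these groups, the difference is given without a test; it was not called by edgeR and was called by DESeq2.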

How the results depend on the processing

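WT rim has 2 libraries, and this limits every comparison with that group. Of 480 recomputed fold changes of the 6 members 447 kept their sign and 455 moved by less than the spread between libraries; 22 of the other 25 came from leaving out a library. Neat1 ran from -1.53 to -0.99 in WT core over WT rim and from 0.64 to 1.18 in the difference of KO over WT between core and rim. Without H874 the KO over WT values in rim changed sign for Lncpint (0.21) and Snhg1 (0.40), without H877 for Gas5 (-0.21) and Snhg12 (-0.13), and without KO rim F322 for Snhg12 (-0.0080). Lncpint in KO core over KO rim was 0.13 among the libraries without Y-linked reads.

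With DESeq2 the calls were 9 genes in KO core over WT core, 268 in KO rim over WT rim (2 on the lists), 35 in KO core over KO rim (2 on the lists), 1907 in WT core over WT rim (34 on the lists) and 161 in the difference (1 member). Without a filter, 2 genes were called in KO rim over WT rim and 4 in the difference. For WT core over WT rim the covariate for other cell types left 497 genes and 1 member, and the libraries without Y-linked reads 313 genes, 6 on the lists, and 1 member. Leaving out 1 library gave 68 (H874) to 795 genes in WT core over WT rim. The same step gave 1 to 3 members and 3 (H874) to 20 list genes there. In KO rim over WT rim it gave 0 to 26 genes, 26 without KO rim F322 and 23 without H877. In the difference it gave 0 to 14 genes, with 14 without KO rim F322 and 14 without H877. H719 and H873 left 500 and 411 genes. The cause was not tested.

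Identifiers F322, F86 and O occur in both KO core and KO rim, and the labels do not say that they mark animals. Deviations from the group means correlated at 0.072, 0.045 and 0.082 between same-named libraries, each the best match of its core library, which hints at pairing. Y-linked reads went together as well, at 449 CPM in core and 503 in rim for F322, 511 and 480 for O, and 0 in both for F86. As the labels do not state pairing and the correlations are under 0.1, the main fit did not pair these libraries. With a replicate block by identifier 562 genes and 2 members were called in WT core over WT rim, and Neat1 had -0.66 in KO rim over WT rim; no call of a member changed.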

Other observations

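For the 3 identifiers found in both KO core and KO rim, core and rim values can be set side by side, although the labels do not say that an identifier marks 1 animal. Neat1 stood at 314 CPM in core and 424 in rim for F322, at 253 and 361 for F86, and at 290 and 349 for O, lower in core in 3 of 3. Snhg1 stood at 29.9 CPM in core and 48.2 in rim for F322, at 27.5 and 34.6 for F86, and at 31.6 and 36.5 for O, also lower in core in 3 of 3. Snhg12 was lower in core in 3 of 3 as well, with log2 differences of -1.60, -0.99 and -0.38. Lncpint was lower in core for F322 and O and higher for F86, at 8.11 CPM in core and 3.40 in rim.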
